A study of Mus musculus with 4 samples.

Results

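Car4, Fibin, Emp2, Tbx2, Chst1, Tmeff2, Ccdc184 and Pnkd, 8 of the 32285 genes in the deposited matrices, were taken by symbol as identity genes of aerocytes, the wide and thin capillary endothelial cells of the alveolus. Their transcripts were counted in 4 single-cell RNA libraries of mouse lung cells from which CD45-positive cells had been taken out with beads before CD31-positive cells were kept, CD31 being the surface protein PECAM1 of endothelium. M3cKO PNX and Foxo1cKO PNX came from conditional knockout mice and WT PNX from wild-type mice, all on day 7 after PNX (read here as pneumonectomy, surgery that takes out lung tissue), and sham came from wild-type mice after a sham operation. The sources used here give neither the gene behind M3 nor the driver of either knockout, nor the strain, age, sex and number of the mice. With 1 library a group, no spread between animals and no test was available, and every 95% interval below covers counting error only.

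Lung capillaries hold an intermingled pair of endothelial cell types. Aerocytes are large cells that lie against the thin alveolar type 1 epithelium where gas is exchanged, and they carry the endothelin receptor Ednrb and the peptide apelin (Apln). General capillary cells carry the apelin receptor Aplnr, the lipoprotein lipase anchor Gpihbp1 and the diaphragm protein Plvap, and they are known as the cells that divide and replace capillary endothelium during repair.

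The genes were measured in all endothelial cells and in an aerocyte gate that used none of them. A cell counted as endothelial with at least 500 genes detected, at most 10% mitochondrial UMIs (unique molecular identifiers, the tags by which transcript molecules are counted), at least 2 UMIs over Pecam1, Cdh5, Cldn5, Egfl7, Ramp2 and Tie1, and 0 UMIs of Ptprc, Epcam, Col1a1 and Col1a2. The gate held the endothelial cells with at least 2 UMIs of Ednrb and Apln together. UMIs were summed per library and given as CPM, counts per 1000000 UMIs of those cells. The gate held 242 of 2491 endothelial cells in M3cKO PNX, 772 of 3811 in Foxo1cKO PNX, 795 of 3887 in WT PNX and 811 of 4665 in sham, and its sums ran to 963932, 3570118, 3749676 and 2741203 UMIs in the same order.

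The libraries held 7617 to 9266 barcodes and 16197681 to 30445999 UMIs. In the check of the targeted gene, Foxo1 in all endothelial cells stood at 185, 70.1, 208 and 196 CPM in M3cKO PNX, Foxo1cKO PNX, WT PNX and sham, and in the gate it stood at 102, 25.8, 124 and 81.7 CPM. Pairs of libraries shared 68 to 111 barcodes, and 11 to 30 gate cells per library had a barcode that occurred in another library. Gate cells of female type, with Xist and without Y-linked UMIs, numbered 0 in M3cKO PNX, 218 in Foxo1cKO PNX, 166 in WT PNX and 0 in sham, and those of male type 92, 134, 207 and 289, so sex composition moved with the groups. Median depth of gate cells was 3498, 3669, 3797 and 3022 UMIs in M3cKO PNX, Foxo1cKO PNX, WT PNX and sham.

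By role, Car4 is a carbonic anhydrase anchored on the capillary surface, where it interconverts carbon dioxide and bicarbonate. Emp2 is a tetraspan membrane protein, and Tmeff2 is a transmembrane protein with follistatin-like and EGF-like domains. Chst1 is a Golgi enzyme that adds sulfate to keratan sulfate. Fibin is a secreted protein known from zebrafish fin bud development. Tbx2 is a T-box transcription factor that mostly acts as a repressor. Pnkd is a protein with a metallo-beta-lactamase fold whose human gene is mutated in a movement disorder, and Ccdc184 is a coiled-coil protein.

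In GRCm38, the 8 protein-coding genes lie on chromosomes 1 (Tmeff2, start 50900647, end 51187270; Pnkd, start 74284930, end 74353694), 2 (Chst1, start 92599707, end 92615250; Fibin, start 110360917, end 110363183), 11 (Car4, start 84957786, end 84966044; Tbx2, start 85832551, end 85841948), 15 (Ccdc184, start 98167158, end 98170134) and 16 (Emp2, start 10281749, end 10313968). Pnkd overlaps Tmbim1 on the opposite strand and Tmeff2 overlaps 4 noncoding genes, and the sources used here do not state how reads over such overlaps were assigned. RefSeq promoters of GRCm38.p6, each 250 bases before to 50 after an annotated start, were matched for 7 of the 8 genes. Those of Fibin, Emp2 and Chst1 are shown because these genes differed most between WT PNX and sham, and that of Car4 because it departed from them once other capillary transcripts were gated out. Capitals mark the letters of a searched motif, and each sequence runs 5′ to 3′ on the strand of the gene.
Fibin, chr2:110362944-110363243, minus strand: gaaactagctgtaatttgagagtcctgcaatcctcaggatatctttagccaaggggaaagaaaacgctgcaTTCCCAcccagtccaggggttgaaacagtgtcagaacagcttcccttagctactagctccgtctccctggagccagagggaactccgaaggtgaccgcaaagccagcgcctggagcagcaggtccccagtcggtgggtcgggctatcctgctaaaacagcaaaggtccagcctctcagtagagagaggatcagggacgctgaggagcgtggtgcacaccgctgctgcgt
Emp2, chr16:10313919-10314218, minus strand: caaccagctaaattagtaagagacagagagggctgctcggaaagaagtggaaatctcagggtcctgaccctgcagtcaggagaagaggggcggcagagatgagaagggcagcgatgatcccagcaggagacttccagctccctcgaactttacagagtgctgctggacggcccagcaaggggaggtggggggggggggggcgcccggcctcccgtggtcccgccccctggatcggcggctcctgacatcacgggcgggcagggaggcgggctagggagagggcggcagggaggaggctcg
Chst1, chr2:92600867-92601166, plus strand: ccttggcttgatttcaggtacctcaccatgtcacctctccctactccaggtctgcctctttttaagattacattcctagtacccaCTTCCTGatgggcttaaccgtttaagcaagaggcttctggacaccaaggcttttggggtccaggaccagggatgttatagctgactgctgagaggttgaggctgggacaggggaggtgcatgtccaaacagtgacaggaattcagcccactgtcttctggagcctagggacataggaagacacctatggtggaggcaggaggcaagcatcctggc
Car4, chr11:84957504-84957803, plus strand: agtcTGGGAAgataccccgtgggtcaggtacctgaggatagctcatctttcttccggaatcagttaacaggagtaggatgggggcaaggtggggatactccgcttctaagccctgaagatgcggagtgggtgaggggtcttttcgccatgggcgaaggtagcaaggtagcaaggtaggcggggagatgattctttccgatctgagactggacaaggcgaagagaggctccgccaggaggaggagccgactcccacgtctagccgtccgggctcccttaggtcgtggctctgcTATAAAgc

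Letters were searched on both strands. The RBPJ letters TGGGAA were found in Car4, Fibin and Tmeff2 and in 25.6% of all 32851 promoters of the same length, the ETS letters CAGGAAG in Chst1 and in 13.3%, and TATAAA in Car4, 42 bases after the annotated start, and in 13.6%. The forkhead letters GTAAACA were in 0 of the 7 promoters and in 3.65% of all, and the T-box letters GGTGTGA in 0 of 7 and in 3.98%. None of the printed letter matches overlap another, the Emp2 promoter held none of these motifs, and a match describes the letters only. GC content of the 7 promoters ran over 52.7% to 70.0%, and the median of all promoters was 52.7%.

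All 8 genes marked the gate in every library. Each was at least 5-fold higher in gate cells than in the other endothelial cells of the same library in all 4 libraries, as were 0.734% of the 5585 genes with at least 20 CPM in every gate. Ordered by the smallest log2 ratio (5 CPM added) over the 4 libraries, Ednrb and Apln, which made the gate, stood at positions 1 and 2, Fibin at 3, Chst1 at 4, Tmeff2 at 6, Tbx2 at 7, Pnkd at 8, Car4 at 18, Emp2 at 19 and Ccdc184 at 21. These genes had been proposed with earlier results of these libraries known, so the positions describe them and test nothing.

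Fibin was the most restricted of the 8. It had 407, 291, 198 and 619 CPM in the gates of M3cKO PNX, Foxo1cKO PNX, WT PNX and sham, against 3.07, 9.23, 2.82 and 13.9 CPM in the other endothelial cells, and 92.8% to 96.4% of its endothelial UMIs lay in gate cells. Car4 was among the least restricted: the other endothelial cells held 263, 299, 192 and 195 CPM of it, and the gate held 59.8% of its endothelial UMIs in M3cKO PNX, 74.3% in Foxo1cKO PNX, 78.1% in WT PNX and 82.3% in sham. Such shares depend on the size of the gate, which held 14.8%, 28.9%, 27.4% and 26.1% of all endothelial UMIs in the same order. By CPM, Car4 was 8.51, 7.12, 9.44 and 13.2 times as high in the gate as in the other endothelial cells. Ccdc184 differed from one library to another, since the gate held 56.0% of its UMIs in M3cKO PNX and 84.7% to 88.8% in the other 3 libraries. Its CPM in the gate was 7.30 times that of the other endothelial cells in M3cKO PNX and 13.6 to 21.6 times in the other 3.

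Across cell classes set by marker UMIs, the 8 genes kept to the gate with a few exceptions. Car4 reached 248 CPM in general capillary cells (at least 2 UMIs of their markers and outside the gate), 154 CPM in arterial cells, 31.5 CPM in venous cells and 18.5 CPM in lymphatic cells, with the libraries pooled. B cells, which should lack it, held 2.98 CPM and T and NK cells 5.83 CPM. Emp2 had 75.8 to 245 CPM in the general capillary cells of the 4 libraries, 990.1 CPM in 66 alveolar type 1 cells, an epithelium in which it is a known membrane protein, and 237.3 CPM in 175 fibroblasts. Tbx2 had 241.1 CPM in fibroblasts, and Chst1 had 84.6 CPM in lymphatic cells, against 7.80 CPM in venous cells. Fibin had 0.252 CPM in venous cells and 38.3 CPM in fibroblasts.

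**Figure D1:**
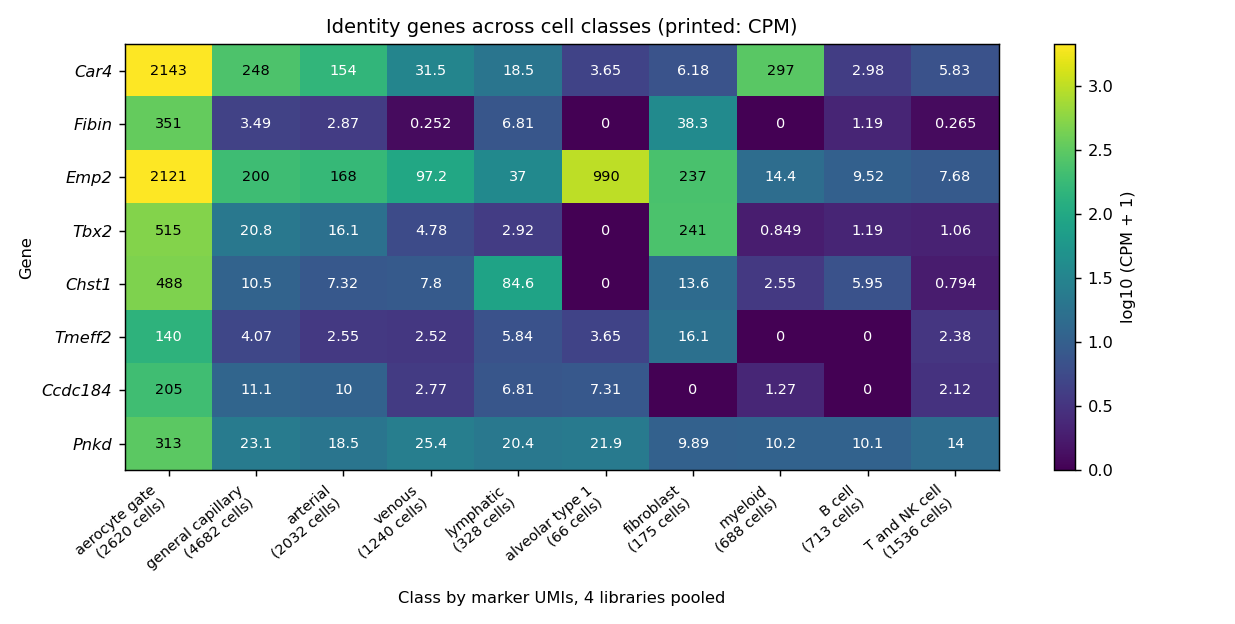
CPM of the 8 genes (rows) in 10 cell classes set by marker UMIs (columns), with UMIs pooled over the 4 libraries; colour gives log10 of CPM plus 1 and the printed numbers are CPM. The gate column holds the highest value of every row, and Emp2 in alveolar type 1 cells (990.1 CPM) and Car4 in myeloid cells (297.5 CPM) are the highest values outside endothelium.

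Single gate cells usually carried several of the genes at once. After each cell had been thinned to 2000 UMIs, with shallower cells left out, gate cells carried a UMI of 4.64 of the 8 genes on average in M3cKO PNX, 4.47 in Foxo1cKO PNX, 4.35 in WT PNX and 5.28 in sham. Other endothelial cells carried 0.621, 0.874, 0.690 and 0.831 in the same order. Gate cells with at least 4 of the genes made up 78.5%, 75.3%, 73.6% and 88.4%, and gate cells with none made up 8.59%, 5.32%, 4.59% and 1.14%. At equal depth the sham gate therefore held the most genes per cell, and M3cKO PNX had both the highest share without any of them and the highest share with at least 4 among the PNX libraries.

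**Figure D2:**
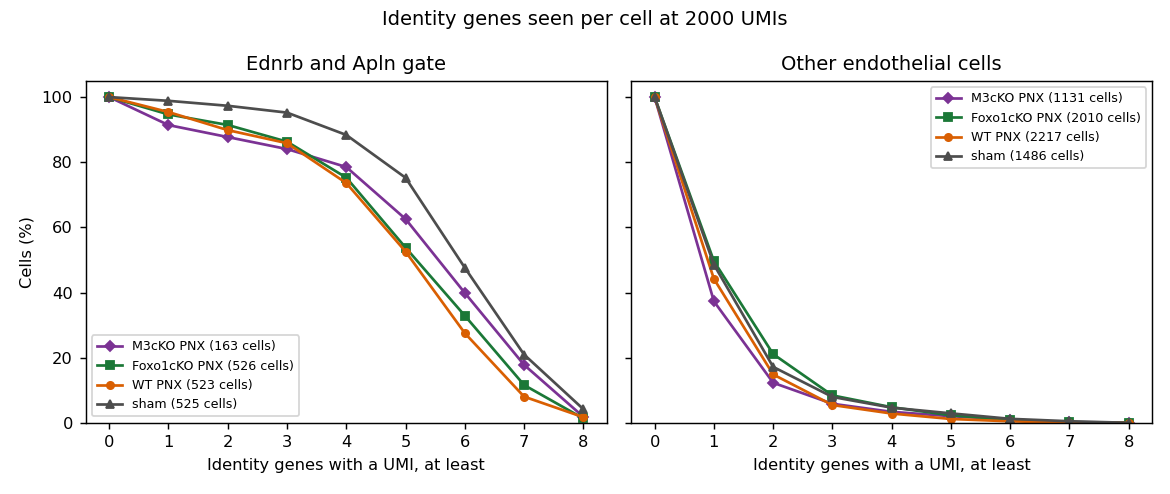
Share of cells (%, vertical axis) with a UMI of at least the given number of the 8 genes (horizontal axis), for gate cells and other endothelial cells thinned to 2000 UMIs, 1 line per library with the cells left after thinning. In the gate the sham line lies above the 3 PNX lines at 1 to 7 genes, with 88.4% of cells at 4 or more genes.

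WT PNX was set against sham to see how wild-type endothelium differs 7 days after lung tissue is removed. In the gate, all 8 genes were lower in WT PNX, each with a ratio interval below 1, and 6 of 8 were at least 1.5-fold lower, as were 8.59% of the 8868 genes with at least 10 CPM in either gate. Their median log2 ratio was −0.92, beside 0.06 over all those genes. Fibin, Emp2 and Chst1 were more than 2-fold lower, as were 2.76% of all genes, and Car4 and Ccdc184 were the smallest differences. In gate cells thinned to 2000 UMIs, Tbx2 (ratio 0.681, 0.609 to 0.761) and Pnkd (0.799, 0.699 to 0.912) lay under 1.5-fold. Ccdc184 had a ratio of 0.947 (0.794 to 1.13) there, whose interval held 1.

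For Fibin, the gate level was 198 CPM (184 to 212) in WT PNX and 619 CPM (590.3 to 649.6) in sham, a ratio of 0.319 (0.292 to 0.348). For Emp2, it was 1561 CPM in WT PNX and 3486 CPM in sham, a ratio of 0.448 (0.433 to 0.463). For Chst1, it was 375 CPM in WT PNX and 807 CPM in sham, a ratio of 0.464 (0.434 to 0.496). None of the 3 rested on a few cells, since the cell with most UMIs gave at most 1.35% of a gene's gate UMIs in either library.

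Tmeff2, Tbx2 and Pnkd were also past 1.5-fold. Tmeff2 had 106 CPM in WT PNX and 209 CPM in sham, with a ratio of 0.510 (0.448 to 0.581). Tbx2 had 382 CPM in WT PNX and 694 CPM in sham, with a ratio of 0.550 (0.514 to 0.590), and Pnkd had 266 CPM in WT PNX and 437 CPM in sham, with a ratio of 0.610 (0.560 to 0.664). Car4, the carbonic anhydrase, had 1815 CPM in WT PNX and 2573 CPM in sham, with a ratio of 0.705 (0.682 to 0.729), and Ccdc184 had 173 CPM in WT PNX and 220.3 CPM in sham, with a ratio of 0.786 (0.702 to 0.879). The last pair lay under 1.5-fold with intervals below 1.

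**Figure D3:**
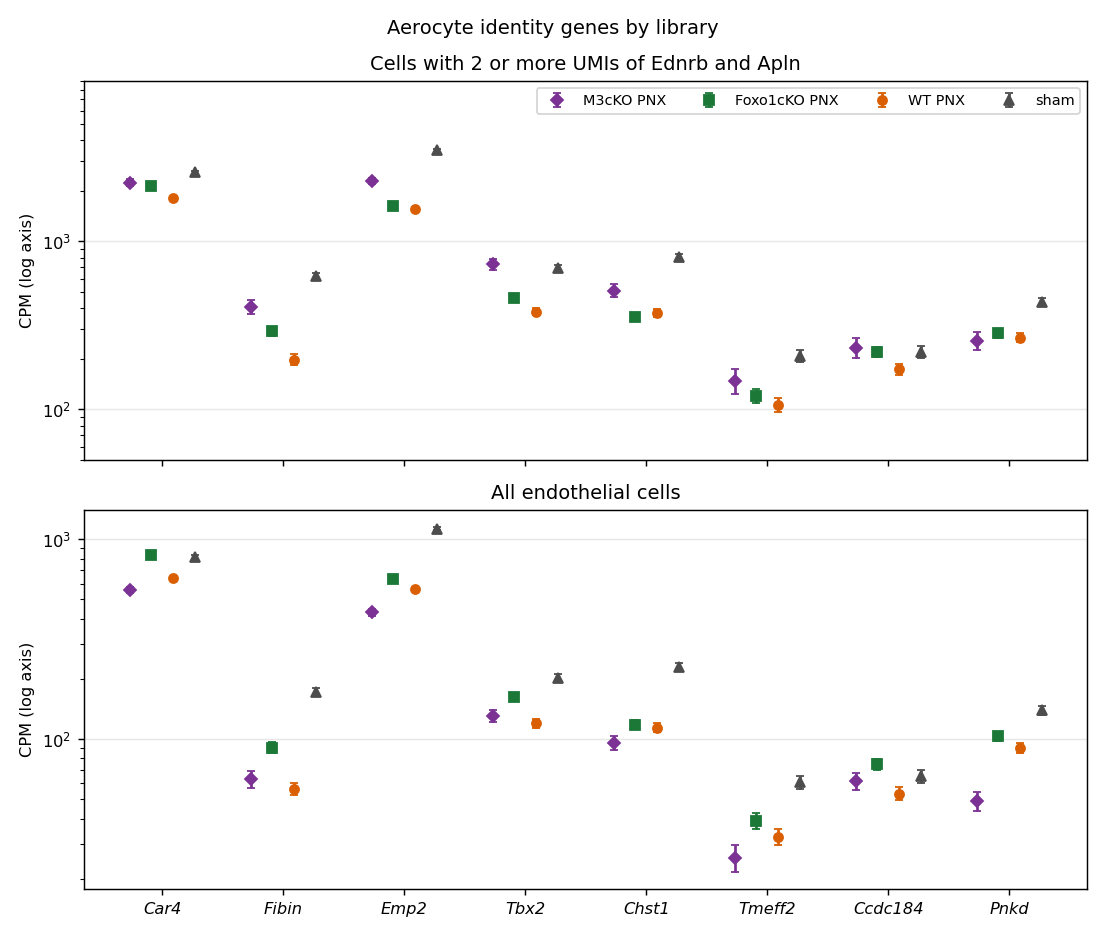
CPM of the 8 genes (log axis) in the aerocyte gate and in all endothelial cells of M3cKO PNX, Foxo1cKO PNX, WT PNX and sham; points are library sums and bars 95% Poisson intervals, which cover counting error only. In the gate WT PNX lies below sham for all 8 genes, with Fibin at 198 against 619 CPM.

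Over all endothelial cells the same 6 genes were at least 1.5-fold lower in WT PNX than in sham, beside 6.98% of 9132 genes, and the median log2 ratio was −0.83. Without cycling cells, Tbx2 (ratio 0.679, 0.635 to 0.725) and Pnkd (0.734, 0.679 to 0.794) lay under 1.5-fold. As a mean of per-cell CPM, 3 of 8 were at least 1.5-fold lower, and the share of all genes was not taken there. In sums over all endothelial cells, fewer cells of a type and less RNA per cell cannot be told apart. The gate took 20.5% of endothelial cells (19.2 to 21.8) in WT PNX and 17.4% (16.3 to 18.5) in sham. That order turned over at equal depth, where the gate took 19.1% (17.6 to 20.6) of WT PNX cells and 26.1% (24.2 to 28.1) of sham cells thinned to 2000 UMIs, after 1147 and 2654 shallower cells had been left out. The order of the gate shares is therefore not settled by these libraries.

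Other transcripts in the WT PNX gate differed from those in the sham gate as well. The 10 cell cycle genes summed to 566 CPM in WT PNX and 13.1 CPM in sham, with all 10 at least 1.5-fold higher. The venous list had 7 of 8 genes higher and summed to 1778 CPM in WT PNX and 418 CPM in sham, led by Vwf at 1002 and 165 CPM, and the arterial list had 4 of 7 measured genes higher and summed to 1381 and 915 CPM. The general capillary list had 6 of 11 genes higher and 1 lower and summed to 5658 CPM in WT PNX and 3891 CPM in sham, and Plvap stood at 1785 and 1126 CPM. Of all genes in the gate, 14.8% were at least 1.5-fold higher.

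Alveolar type 2 transcripts ran the other way, with 5 of 6 genes lower and a sum of 187 CPM in WT PNX and 917 CPM in sham. The alveolar type 1 list, which matters for Emp2, had 2 of 6 measured genes lower and summed to 890.5 CPM in WT PNX and 1457 CPM in sham, of which Hopx alone gave 768 and 1304 CPM and the defining marker Ager 12.5 and 47.4 CPM. The part of the type 2 transcripts in the gate results was not tested, and gates without cells carrying markers of the other lists follow.

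Within every library, the genes were lowest in the gate cells with 3 or more UMIs of the general capillary genes Gpihbp1 and Plvap together. Gate cells with 0 UMIs of Gpihbp1 and Plvap had 2983, 3752, 3362 and 3296 CPM of Car4 in M3cKO PNX, Foxo1cKO PNX, WT PNX and sham, and those with 3 or more had 1347, 1379, 1049.6 and 1798 CPM. The other 7 genes were lower in the second set in each of the 4 libraries too. Gate cells with 1 or 2 such UMIs were not always between the sets, since in M3cKO PNX they held 671 CPM of Fibin and 3476 CPM of Emp2, against 556 and 2822 CPM in cells with none. Cells with 3 or more such UMIs made up 31.4% of the gate in M3cKO PNX, 45.3% in Foxo1cKO PNX, 45.7% in WT PNX and 30.0% in sham, and they were deeper, with medians of 5301, 5669, 5957 and 4398 UMIs against 3087, 2742, 2622 and 2339 in cells with none.

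**Figure D4:**
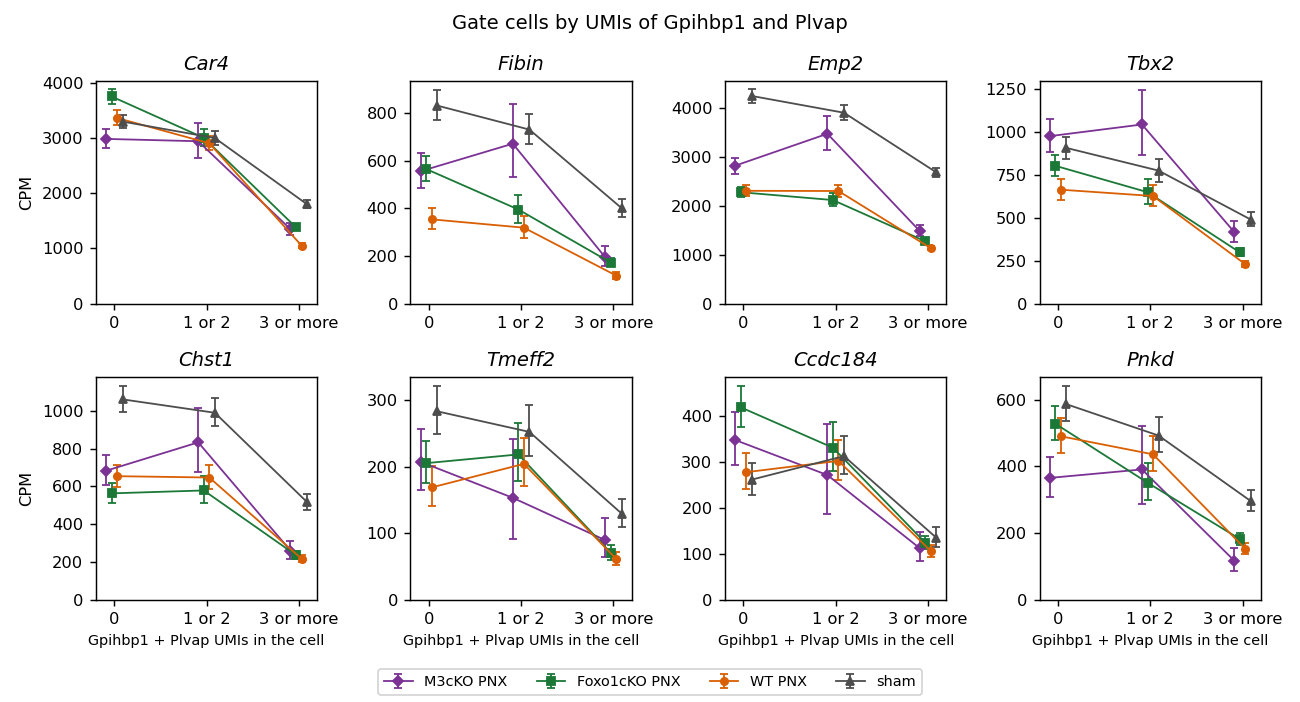
CPM of each of the 8 genes in gate cells with 0, 1 or 2, and 3 or more UMIs of Gpihbp1 and Plvap together (horizontal axis), 1 line per library, with bars for 95% Poisson intervals. All lines end lowest at 3 or more UMIs; at 0 UMIs the Car4 lines of WT PNX (3362 CPM) and sham (3296 CPM) meet, while those of Fibin (354 and 831 CPM) stay apart.

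The 8 genes parted into those that stayed lower in WT PNX and those that did not once the gate was narrowed to cells with 0 UMIs of Gpihbp1 and Plvap, 258 cells in WT PNX and 339 in sham. Fibin (354 CPM in WT PNX and 831 CPM in sham, ratio 0.425, 0.367 to 0.491), Emp2 (2308 and 4249 CPM, ratio 0.543, 0.512 to 0.576), Tmeff2 (169 and 283 CPM, ratio 0.596, 0.475 to 0.743) and Chst1 (654 and 1061 CPM, ratio 0.616, 0.550 to 0.689) were still at least 1.5-fold lower. At that depth 13.7% of 8601 genes were. Tbx2 (665 and 909 CPM) and Pnkd (491 and 587 CPM) had ratios of 0.731 (0.652 to 0.820) and 0.836 (0.728 to 0.959). Car4 had a ratio of 1.02 (0.966 to 1.08) and Ccdc184 (278 CPM in WT PNX and 262 CPM in sham) one of 1.06 (0.874 to 1.29), so neither differed beyond its counting error there.

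With cells that also carried any of 5 further venous and arterial markers or a cell cycle gene left out, 4 of the 8 genes were still at least 1.5-fold lower, beside 14.9% of 8693 genes, and the median log2 ratio was −0.51. Without cells that held Ager, Rtkn2, Pdgfrb or Cspg4, Emp2 had a gate ratio of 0.455. Among male-type cells only, 7 of 8 genes were at least 1.5-fold lower, beside 13.5% of 8974 genes, and the median was −1.19.

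The genes most like the 8 in gate restriction included Egflam, AW112010, Pde8b, Sirpa, Adamtsl5, Frrs1, Dpysl5, Slc22a23 and Chst2. They were among the next highest by the smallest log2 ratio of gate over other endothelial cells across the 4 libraries. All 9 had lower gate levels in WT PNX than in sham, with ratios of 0.458 for Frrs1 to 0.701 for Sirpa, the receptor of CD47. Chst2, another carbohydrate sulfotransferase, had 155 CPM in WT PNX and 267 CPM in sham.

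Of a list of 11 other aerocyte genes, Ednrb and Apln left out because they made the gate, none was 1.5-fold higher or lower in the WT PNX gate than in the sham gate, beside the 14.8% and 8.59% of all genes. Their median log2 ratio was −0.37, beside 0.06 over all genes, and 10 of the 11 had ratios below 1. The lowest log2 ratio was −0.58, just short of 1.5-fold lower. Kdr, the VEGF receptor on which aerocytes depend, had 2649.6 CPM in WT PNX and 3957 CPM in sham, Igfbp7 had 6539.8 CPM and 9749 CPM, and Clic5 had 1478 and 1489 CPM.

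M3cKO PNX was set against WT PNX to see what the M3 deletion changes after PNX. In the gate, 7 of 8 genes were higher in M3cKO PNX with ratio intervals above 1, and 2 of them, Fibin and Tbx2, were at least 1.5-fold higher, beside 7.71% of 8843 genes. That count ran over 1 to 5 in the alternatives tried, among them 3 with TMM scaling, 4 with the median of ratios, 5 in male-type cells and in gate cells of 3000 UMIs or more, and 1 in cells thinned to 2000 UMIs. The share of all genes was not taken in these named alternatives, so their counts have nothing to be set beside. The median log2 ratio was 0.46 for the 8 genes and −0.13 for all genes tested. The list of 11 other aerocyte genes was mixed, with a median log2 ratio of 0.21 and 5 ratios below 1. Of those 11, 2 were at least 1.5-fold higher and 1 lower, beside 7.71% and 18.9% of all genes. Scaling by TMM or by the median of ratios, which moved all genes by 0.11 and 0.14, put the median of the 8 at 0.56 and 0.59. In gate cells thinned to 2000 UMIs, only Fibin, Emp2 and Tbx2 kept intervals above 1. The intervals of the other genes held 1 there, among them Car4 at a ratio of 0.994 (0.918 to 1.07).

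Fibin had 407 CPM (367 to 449) in M3cKO PNX and 198 CPM (184 to 212) in WT PNX, a ratio of 2.06 (1.82 to 2.33). Tbx2, the T-box factor, had 732 CPM (679 to 788) in M3cKO PNX and 382 CPM (362 to 402) in WT PNX, a ratio of 1.92 (1.75 to 2.10). In the order of the 4 libraries Tbx2 was highest in M3cKO PNX and sham, which did not differ beyond counting error, then lower in Foxo1cKO PNX and lowest in WT PNX.

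Emp2 had 2298 CPM in M3cKO PNX and 1561 CPM in WT PNX, a ratio of 1.47 (1.40 to 1.55). Tmeff2 (147 and 106 CPM, ratio 1.38, 1.13 to 1.68), Chst1 (509 and 375 CPM, ratio 1.36, 1.22 to 1.51), Ccdc184 (232 and 173 CPM, ratio 1.34, 1.15 to 1.57) and Car4 (2238 and 1815 CPM, ratio 1.23, 1.17 to 1.29) were also above 1. Pnkd had 256 CPM in M3cKO PNX and 266 CPM in WT PNX, a ratio of 0.962 (0.833 to 1.11), whose direction turned under both other scalings. M3cKO PNX lay below sham in the gate for Fibin, Emp2, Chst1, Tmeff2, Car4 and Pnkd.

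The M3cKO PNX gate also held fewer transcripts of other classes. The general capillary list summed to 3774 CPM in M3cKO PNX and 5658 CPM in WT PNX with 5 of 11 genes lower, the venous list to 730.3 and 1778 CPM with 6 of 8 lower and 1 higher, and the cell cycle list to 424 and 566 CPM with 3 of 10 lower. Of all 8843 genes in the gate, 18.9% were at least 1.5-fold lower. In gate cells with 0 UMIs of Gpihbp1 and Plvap, 131 cells in M3cKO PNX and 258 in WT PNX, Fibin kept a ratio of 1.57 (1.31 to 1.89), the only 1 of the 8 past 1.5-fold, beside 14.0% of 8477 genes. Tbx2 had 977 CPM in M3cKO PNX and 665 CPM in WT PNX there, a ratio of 1.47 (1.28 to 1.68), and Emp2 had 2822 and 2308 CPM, a ratio of 1.22 (1.13 to 1.32). Car4 turned over, with 2983 CPM in M3cKO PNX and 3362 CPM in WT PNX and a ratio of 0.887 (0.828 to 0.951), and Pnkd had 366 and 491 CPM, a ratio of 0.745 (0.612 to 0.904).

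**Figure D5:**
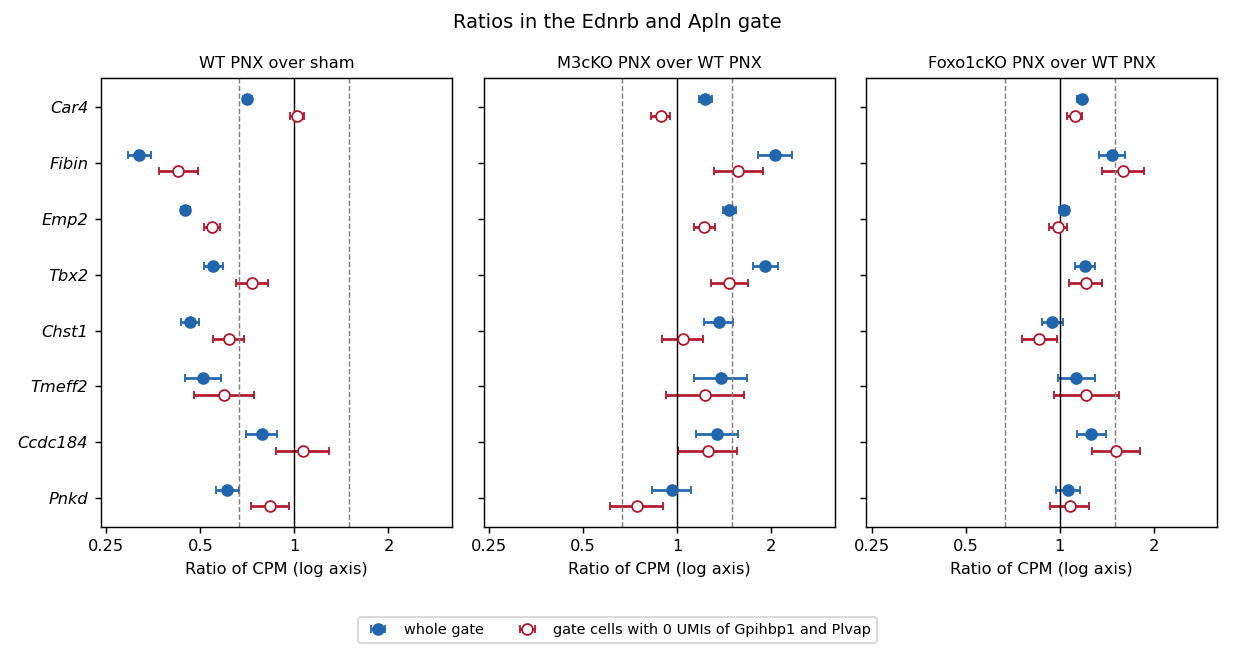
Ratios of CPM (log axis) of the 8 genes for WT PNX over sham, M3cKO PNX over WT PNX and Foxo1cKO PNX over WT PNX, in the whole gate (filled) and in gate cells with 0 UMIs of Gpihbp1 and Plvap (open); bars are 95% intervals for counting error, the solid line marks 1 and the dashed lines 1.5-fold. Fibin lies left of the lower dashed line in WT PNX over sham in both gates (0.319 and 0.425), while Car4 moves to 1.02 in the narrower gate.

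Over all endothelial cells the direction was mixed. The gate took 9.71% of endothelial cells (8.58 to 10.9) in M3cKO PNX and 20.5% (19.2 to 21.8) in WT PNX, and at 2000 UMIs per cell 12.6% (10.8 to 14.5) and 19.1% (17.6 to 20.6). Of the 8 genes, 5 had ratios below 1 and 3 above 1, with a median log2 ratio of −0.22, beside −0.14 over all genes, and 1 gene, Pnkd, was at least 1.5-fold lower (48.8 CPM in M3cKO PNX and 90.1 CPM in WT PNX), beside 14.4% of 9089 genes. Car4 had 556 and 637 CPM, Emp2 430.0 and 567 CPM, and Fibin 63.0 and 56.2 CPM.

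Outside the gate, of the genes with at least 10 CPM in either library, Emp2 alone ran against its gate direction. Emp2 had 104 CPM in M3cKO PNX and 192 CPM in WT PNX in the other endothelial cells, a ratio of 0.545 (0.496 to 0.598), beside 16.2% of 9152 genes at least 1.5-fold lower. In general capillary cells alone it had 75.8, 230.2, 202 and 245 CPM in M3cKO PNX, Foxo1cKO PNX, WT PNX and sham, so M3cKO PNX was the low library of the 4. Car4 went the other way in the same cells, with 288, 324.5, 217 and 196 CPM. Arterial cells showed the same pair of orders between M3cKO PNX and WT PNX, with 76.6 and 176 CPM of Emp2 and 254 and 116 CPM of Car4.

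Ccdc184 outside the gate had 31.8 CPM in M3cKO PNX and 8.25 CPM in WT PNX, a ratio of 3.86 (2.95 to 5.08), beside 6.79% of genes at least 1.5-fold higher. General capillary cells held 22.7, 11.4, 9.19 and 6.37 CPM of it in M3cKO PNX, Foxo1cKO PNX, WT PNX and sham, and arterial cells 21.9, 12.3, 5.52 and 6.0 CPM. M3cKO PNX was highest in both classes. Pnkd outside the gate had 12.7 CPM in M3cKO PNX and 23.5 CPM in WT PNX, a ratio of 0.538 (0.406 to 0.705).

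The comparison of Foxo1cKO PNX with WT PNX asks what loss of the forkhead factor Foxo1 changes after PNX, and it shares the WT PNX library with the comparison of M3cKO PNX. In the gate none of the 8 genes was 1.5-fold higher or lower, beside 3.29% of 8832 genes higher and 4.23% lower, and the median log2 ratio was 0.21. Fibin had 291 CPM (274 to 309) in Foxo1cKO PNX and 198 CPM (184 to 212) in WT PNX, a ratio of 1.47 (1.34 to 1.62) just under 1.5-fold. Ccdc184 (219 and 173 CPM, ratio 1.26, 1.14 to 1.40), Tbx2 (460 and 382 CPM, ratio 1.20, 1.12 to 1.29) and Car4 (2132 and 1815 CPM, ratio 1.18, 1.14 to 1.21) also had intervals above 1. With at most 5% mitochondrial UMIs, the intervals of Ccdc184 (0.988 to 1.43), Tbx2 (0.897 to 1.16) and Car4 (0.995 to 1.12) held 1. Fibin kept a ratio of 1.51 (1.27 to 1.79) there, and Emp2 and Chst1 had intervals below 1. Among male-type gate cells, Ccdc184 had a ratio of 0.975 (0.772 to 1.23) and Tbx2 one of 1.12 (0.958 to 1.32). Fibin and Car4 kept intervals above 1 in those cells, and Emp2, Chst1 and Tmeff2 had such intervals too.

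For Emp2, Tmeff2, Pnkd and Chst1 the intervals in the whole gate held 1. Emp2 had 1614 CPM in Foxo1cKO PNX and 1561 CPM in WT PNX, a ratio of 1.03 (0.997 to 1.07), and Chst1 had 355 and 375 CPM, a ratio of 0.946 (0.876 to 1.02). Tmeff2 had a ratio of 1.13 (0.985 to 1.30) and Pnkd one of 1.06 (0.973 to 1.16). Gate cells with 0 UMIs of Gpihbp1 and Plvap gave 565 CPM of Fibin in Foxo1cKO PNX and 354 CPM in WT PNX, a ratio of 1.60 (1.37 to 1.87), and 420 and 278 CPM of Ccdc184, a ratio of 1.51 (1.27 to 1.80). Those 2 of 8 were past 1.5-fold, beside 10.7% of 8519 genes. Chst1 was lower there, with 563 CPM in Foxo1cKO PNX and 654 CPM in WT PNX and a ratio of 0.861 (0.756 to 0.980).

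Over all endothelial cells, all 8 genes had ratios above 1 in Foxo1cKO PNX over WT PNX, 7 of them with intervals above 1. The share of all genes with ratios above 1 was not taken. The median log2 ratio was 0.32, beside −0.0056 over all genes tested. Fibin alone was at least 1.5-fold higher, with 90.7 CPM in Foxo1cKO PNX and 56.2 CPM in WT PNX and a ratio of 1.62 (1.47 to 1.77), beside 1.09% of 9052 genes. Car4 had 829 and 637 CPM, a ratio of 1.30 (1.27 to 1.34). The gate took 20.3% of endothelial cells (19.0 to 21.6) in Foxo1cKO PNX and 20.5% (19.2 to 21.8) in WT PNX. In endothelial cells with at most 5% mitochondrial UMIs, 4 of the 8 genes had ratios above 1 and 4 below. Among male-type endothelial cells 7 of the 8 had ratios above 1, and Ccdc184 had one of 0.839 (0.674 to 1.04).

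Outside the gate all 8 genes had ratios above 1, Fibin and Tmeff2 from levels under 10 CPM. Chst1, with a ratio of 0.946 (0.876 to 1.02) in the gate, had 1.38 (1.11 to 1.72) in those other endothelial cells. Outside the gate, Car4 (299 CPM in Foxo1cKO PNX and 192 CPM in WT PNX, ratio 1.56, 1.47 to 1.65), Tbx2 (41.0 and 21.1 CPM, ratio 1.94, 1.63 to 2.31) and Ccdc184 (16.1 and 8.25 CPM, ratio 1.95, 1.47 to 2.59) were at least 1.5-fold higher, beside 1.5% of 9127 genes. Fibin stood at 9.23 CPM in Foxo1cKO PNX and 2.82 CPM in WT PNX, under the minimum of 10 CPM.

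The 2 types of cell by sex markers could be set side by side in Foxo1cKO PNX. Over all endothelial cells of that library, female-type cells held more of Ccdc184 than male-type cells (82.1 and 52.4 CPM, ratio 1.57, 1.27 to 1.94), and of Tbx2 (171 and 119.8 CPM, ratio 1.43, 1.24 to 1.64), Fibin (94.6 and 71.0 CPM, ratio 1.33, 1.11 to 1.61), Car4 (833 and 669 CPM, ratio 1.24, 1.17 to 1.32) and Emp2 (665 and 582 CPM, ratio 1.14, 1.07 to 1.22). In its gate, Emp2 (1382 and 1633 CPM, ratio 0.846, 0.786 to 0.911), Chst1 (284 and 341 CPM, ratio 0.832, 0.707 to 0.982) and Car4 (1693 and 1883 CPM, ratio 0.899, 0.840 to 0.963) were lower in female-type cells, and the intervals of the other 5 genes held 1. In WT PNX the orders ran the other way for Car4, Emp2 and Ccdc184 over all endothelial cells, with ratios of 0.818 (0.768 to 0.871), 0.920 (0.864 to 0.979) and 0.692 (0.561 to 0.853), and for Emp2 and Chst1 in the gate, with ratios of 1.12 (1.05 to 1.21) and 1.21 (1.03 to 1.41). With male-type cells only, the median log2 ratio of Foxo1cKO PNX over WT PNX was 0.31 in the gate and 0.11 over all endothelial cells.

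Gate cells that carried Apln without Ednrb stood apart. They made up 14.5% of the gate in M3cKO PNX, 11.7% in Foxo1cKO PNX, 10.4% in WT PNX and 4.32% in sham, and their Car4 level was 437, 738, 482 and 1156 CPM. Cells with at least 2 UMIs of Ednrb held 2602, 2424, 2079 and 2684 CPM. Emp2 showed the same order of the sets, with 257, 537, 574 and 2055 CPM in the cells without Ednrb and 2691, 1811, 1754 and 3584 CPM in those with it.

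Gate cells in the cell cycle, with at least 2 UMIs over the 10 cycle genes, numbered 8 in M3cKO PNX, 44 in Foxo1cKO PNX, 65 in WT PNX and 2 in sham. They held less of the 8 genes than the whole gate in the PNX libraries. Car4 stood at 731, 740.5 and 854 CPM in M3cKO PNX, Foxo1cKO PNX and WT PNX, and Fibin at 169.7, 60.0 and 84.7 CPM. Without cycling cells the median log2 ratio of WT PNX over sham in the gate was −0.76.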

How the data were processed

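The deposited values are unnormalized UMI counts of genes in barcodes, whole numbers that the authors made with Cell Ranger 2.1.1 against mm10, per the labels' protocol; the file headers carry software version 3.0.0, and the submitters' processing notes also name R 3.4.4. Cells, gates and CPM are defined in the report. The genes and marker lists were chosen with earlier results of these data known. Levels carry exact Poisson intervals, ratios exact conditional binomial intervals and shares Clopper-Pearson intervals, all at 95%, for counting error only. The log2 medians given over all genes and over the 8 genes add 0 CPM. Only the order by gate restriction adds 5 CPM. A gene was called at 1.5-fold with at least 10 CPM in the higher library, a rule of size and not a test. Named genes were the 8, Ednrb, Apln, Foxo1, Rhoj, the 10 most like them (of which 1 is not reported here) and, of each list, up to 4 genes with the largest ratios; Ager, Hopx, Clic5, Plvap and the marker genes of myeloid cells were named after their values were seen. Scrublet's own threshold in scanpy 1.11.5 marked 9, 1, 1 and 0 cells in M3cKO PNX, Foxo1cKO PNX, WT PNX and sham, under 0.5%, and had not worked, so doublets were kept and removal by score rank was an alternative. Python 3.11.15, numpy 2.4.6, scipy 1.17.1, pandas 2.3.3, matplotlib 3.10.9 and, for TMM factors, edgeR 4.0.16 in R 4.3.3 were used. The fold calls and ratio intervals were tested on simulated Poisson sums, which hold no spread between cells or animals and so cover counting error only. Sequences are from the RefSeq promoter table of GRCm38.p6 and gene positions from GENCODE on GRCm38. The smallest endothelial sum, 6492399 UMIs, and the smallest gate sum, 963932 UMIs, both in M3cKO PNX, set the lowest precision.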

Additional observations from a re-analysis of the deposited data

Results flagged for a closer look

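Car4 appeared outside endothelium. It had 297.5 CPM in 688 myeloid cells pooled over the libraries, a class that the comparisons do not use, against 2.98 CPM in B cells. Emp2 had 990.1 CPM in alveolar type 1 cells and 237.3 CPM in fibroblasts, and Tbx2 had 241.1 CPM in fibroblasts, all above the level in B cells.

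Emp2 moved in opposite directions in 2 sets of endothelial cells in M3cKO PNX over WT PNX. Its log2 ratio was 0.5574 in the gate and −0.8758 in the other endothelial cells, and the difference between them was not tested, since each group was 1 library.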

How the results depend on the processing

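No paired analysis was possible because each group was 1 library, and no library could be left out of a comparison. Of 168 values per comparison (each of the 8 genes under 21 alternatives in the gate), 164, 160 and 153 kept their direction in WT PNX over sham, M3cKO PNX over WT PNX and Foxo1cKO PNX over WT PNX, and over all endothelial cells 120, 111 and 112 of 120. In the gate, the median log2 ratio of WT PNX over sham was −0.67 as a mean of per-cell CPM, −0.54 at most 5% mitochondrial UMIs, −1.07 with a gate at 1 UMI, −0.75 on Ednrb alone, −0.57 with 0 Gpihbp1 and Plvap, −0.51 with 0 markers of other classes, −0.76 without cycling cells, −1.19 in male-type cells and −0.58 at 2000 UMIs. Over all endothelial cells it was −0.44 as a mean of per-cell CPM, −1.06 at 1000 genes or more, −0.62 without cycling cells and −1.17 in male-type cells. For M3cKO PNX over WT PNX the gate median was 0.18 with 0 markers of other classes, 0.75 in male-type cells and 0.21 at 2000 UMIs. Over all endothelial cells that median was −0.49 as a mean of per-cell CPM, −0.53 at most 5% mitochondrial UMIs, −0.082 at 1000 genes or more, −0.33 without cycling cells, −0.044 in male-type cells, −0.10 with TMM, −0.067 with the median of ratios and 0.44 with the gate given its UMI share of WT PNX. For Foxo1cKO PNX over WT PNX the gate median was −0.037 at most 5% mitochondrial UMIs and 0.048 on Apln alone, and over all endothelial cells it was 0.026 at most 5% mitochondrial UMIs and 0.11 in male-type cells. The log2 ratio of the gate share, WT PNX over sham, turned negative at −0.32 at most 5% mitochondrial UMIs, −0.11 at 1000 genes or more, −0.13 with 0 Gpihbp1 and Plvap, −0.19 with 0 markers of other classes and −0.45 at 2000 UMIs, and was 0.46 on Apln alone and 0.10 in male-type cells. That ratio for M3cKO PNX over WT PNX was −0.73 at 1000 genes or more, −1.34 on Apln alone, −0.34 with 0 Gpihbp1 and Plvap, −0.17 with 0 markers of other classes and −0.60 at 2000 UMIs, and for Foxo1cKO PNX over WT PNX it was 0.21, 0.28, −0.15 and 0.12 with 0 Gpihbp1 and Plvap, with 0 markers of other classes, in male-type cells and at 2000 UMIs. The cause of these shifts was not tested. The narrower gates with 0 markers of other classes, the set with 3000 or more UMIs and the sets without shared barcodes were chosen after seeing the data. Levels near 10 CPM outside the gate rest on few UMIs.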

Other observations

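The Car4 of myeloid cells lay in a small set of them. Myeloid cells with at least 2 UMIs over Chil3, Ear1, Marco and Plet1, genes known from alveolar macrophages and chosen here after their values were seen, held 878 CPM (809 to 952) of Car4 in 90 cells of M3cKO PNX, 544 CPM (423 to 688) in 29 cells of Foxo1cKO PNX and 307 CPM (210 to 433) in 25 cells of WT PNX. Sham had 0 such cells. The remaining 342, 105 and 68 myeloid cells held 6.18, 3.81 and 12.8 CPM in the same order, and the 29 of sham held 0 UMIs. In M3cKO PNX, Emp2 had 5.94 CPM (1.62 to 15.2) in the Car4-holding set and 12.4 CPM (6.39 to 21.6) in the remaining myeloid cells.

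Chst1 in lymphatic endothelium had 86.2, 154, 41.6 and 80.4 CPM in 43, 70, 82 and 133 cells of M3cKO PNX, Foxo1cKO PNX, WT PNX and sham, while the other 7 genes had 37.0 CPM or less there with the libraries pooled.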
